A study of Homo sapiens with 96 samples.

Results

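The genes described here are 23 of the 60605 gene IDs measured in K562 cells, an established leukaemia line. Their RNA was higher after 72 h of BCOR loss and near its untreated level after 72 h of KDM2B loss. Measured values chose them. Levels are in CPM, the counts of a gene scaled to the total of its library. The ratio is the log2 of the 72 h mean over the untreated mean, after adding 0.5 CPM to both. A member needed a ratio of at least 0.8 and a 72 h mean of at least 2 CPM in the BCOR time course, and a ratio between -0.2 and 0.2 in the KDM2B time course. Of 326 genes that met the BCOR conditions, 292 had a KDM2B ratio above 0.2 and 11 one below -0.2, and these 303 are called the other BCOR risers. The members are 21 protein-coding genes and 2 long non-coding RNAs.

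BCOR and KDM2B are subunits of PRC1.1, a variant Polycomb repressive complex that ubiquitinates histone H2A. KDM2B has a CxxC zinc finger that binds unmethylated CpG dinucleotides and recruits the complex to CpG islands. BCOR links the catalytic core with PCGF1 to KDM2B, and is also known as a corepressor of the transcription factor BCL6. The related complex PRC2 methylates histone H3 through EZH2, which GSK343 inhibits.

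The study used degron cells, in which the ligand 5PhIAA is added to remove a tagged protein. BCOR-mAID and KDM2B-mAID cells had the ligand for 2, 8, 24 or 72 h or none. A table named for KDM2B mutants holds LF, SF, dLRRS, dCxxC and EV cells with ligand or DMSO. An inhibitor table named for KDM2B-mAID holds ligand plus GSK343, ligand, GSK343 and DMSO, and the last table holds these 4 treatments in KDM2B-mAID_J2_7 cells (J2_7) and KDM2B-mAID cells (mAID). The name of the last table gives wild type and a double knockout of JARID2 and AEBP2, accessory subunits of PRC2, but the labels do not say that J2_7 is that knockout. Each of the 32 groups had 3 libraries, 96 in all. The labels do not spell out the construct names or give a number of clones. They do not say that libraries came from separate cultures, so p-values measure only the spread between these libraries. No vehicle or untagged group stood beside the time courses, and RNA cannot show whether a protein was lost.

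Library totals spanned 5806624 to 18519442 counts for BCOR, 10429112 to 19910440 for KDM2B, 2346542 to 22611557 for the constructs, 4268383 to 24545679 for the inhibitor and 782663 to 12740071 for J2_7. The shallowest construct library, EV ligand library 1, stood apart: the chi-square of counts per degree of freedom was 84.6 and 77.5 against the other EV ligand libraries and 2.99 between those. Of 12 erythroid markers of K562 cells, 11 reached a mean of 1 CPM in the BCOR and KDM2B tables, 4 of 6 epithelial markers did (EPCAM, KRT8, KRT18 and KRT19), and 0 of 6 fibroblast markers did. The J2_7 table, for which the labels also name another library protocol, stood apart: the erythroid markers summed to 12608 to 25691 CPM there, against 2207 to 3043 CPM in the BCOR table. Member levels in the J2_7 table are compared only within it. BCOR RNA averaged 302, 440.4, 631, 779 and 1075 CPM from untreated to 72 h in the BCOR table, and KDM2B RNA averaged 75.04, 78.3, 86.8, 82.6 and 82.01 CPM in the KDM2B table. BCOR RNA was higher with ligand in the KDM2B table too, with means of 253, 360, 372, 360 and 438 CPM.

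Promoters were read because KDM2B binds CpG. RefSeq windows of 300 bases on GRCh38.p14, with 250 bases before the start and 50 after, matched 17 of the 23 members. ANGPT1, CCND1, CDKN1C, COL6A5, NEAT1 and ENSG00000261578 were not matched. Only 1 window was kept per symbol. For CEMIP2 (31 CpG) and ABLIM1 (5 CpG), both on the minus strand, it lies inside the gene. These 2 windows end at 71768763 and 114685253, while the genes begin at 71816690 and 114768061, so they may not be the main promoters. The windows of ANKRD33B, IQGAP2, DPF3 and NEO1 are shown because the 24 h changes of these genes differed between the degrons, and that of CYBB because it held the fewest CpG. They lie at chr5:10563820-10564119 (plus strand), chr5:76403035-76403334 (plus strand), chr14:72894052-72894351 (minus strand), chr15:73051652-73051951 (plus strand) and chrX:37779809-37780108 (plus strand), and are written 5′ to 3′ along the gene with CpG in capitals.
ANKRD33B: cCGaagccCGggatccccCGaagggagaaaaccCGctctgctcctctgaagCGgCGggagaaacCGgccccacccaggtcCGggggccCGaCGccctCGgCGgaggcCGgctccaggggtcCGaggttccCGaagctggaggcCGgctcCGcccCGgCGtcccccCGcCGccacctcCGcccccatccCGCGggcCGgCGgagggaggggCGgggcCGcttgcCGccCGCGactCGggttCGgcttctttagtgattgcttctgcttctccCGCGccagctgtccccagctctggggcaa
IQGAP2: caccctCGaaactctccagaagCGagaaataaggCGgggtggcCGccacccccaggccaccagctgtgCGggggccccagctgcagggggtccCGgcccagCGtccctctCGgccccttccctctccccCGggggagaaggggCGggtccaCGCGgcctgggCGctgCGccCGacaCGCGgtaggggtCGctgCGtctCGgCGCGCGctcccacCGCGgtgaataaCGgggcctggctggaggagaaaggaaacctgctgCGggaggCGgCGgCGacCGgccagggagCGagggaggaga
DPF3: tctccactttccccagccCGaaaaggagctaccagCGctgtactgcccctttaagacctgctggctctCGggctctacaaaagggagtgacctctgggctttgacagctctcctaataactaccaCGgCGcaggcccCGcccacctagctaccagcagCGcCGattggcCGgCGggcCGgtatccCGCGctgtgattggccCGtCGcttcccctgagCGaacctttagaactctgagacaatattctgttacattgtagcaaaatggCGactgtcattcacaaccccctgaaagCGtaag
NEO1: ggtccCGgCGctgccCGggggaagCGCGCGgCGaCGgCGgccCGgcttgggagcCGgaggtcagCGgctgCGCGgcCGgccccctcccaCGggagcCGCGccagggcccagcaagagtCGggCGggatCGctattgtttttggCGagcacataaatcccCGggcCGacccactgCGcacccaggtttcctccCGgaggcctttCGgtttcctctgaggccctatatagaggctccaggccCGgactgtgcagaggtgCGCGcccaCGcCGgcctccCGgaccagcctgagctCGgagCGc
CYBB: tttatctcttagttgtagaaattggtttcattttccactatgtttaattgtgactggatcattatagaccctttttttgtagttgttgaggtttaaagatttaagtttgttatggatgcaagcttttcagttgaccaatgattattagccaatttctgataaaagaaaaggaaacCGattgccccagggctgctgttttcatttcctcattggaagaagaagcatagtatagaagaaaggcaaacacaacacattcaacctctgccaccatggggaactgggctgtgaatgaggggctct
The 5 windows shown hold 35, 32, 18, 35 and 1 CpG. The median was 33 CpG in the member windows, 30 in 217 windows of the other BCOR risers and 14 in all 27305 windows. At least 20 CpG were held by 13 of 17 member windows (76.5%), against 69.6% for the other BCOR risers and 41.2% of all windows. All windows were not limited to expressed genes, while each member reached 2 CPM. The gap to all windows is therefore not read as a trait of the members. TTCNNNGAA, a core of the BCL6 motif that reads the same on both strands, was in 0 of 17 member windows, in 2.8% for the other BCOR risers and in 7.9% of all windows. At such shares 17 windows are too few to set the members apart, and nothing about BCL6 is read from this.

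The levels that chose the members are a description, with no test. ANKRD33B, an ankyrin-repeat gene on chromosome 5 from 10564070 to 10657816 (hg38), had the highest ratio, 1.82, with 71.3, 56.5 and 60.9 CPM after 72 h of BCOR loss and 18.95, 15.7 and 17.6 CPM untreated. IQGAP2, a scaffold protein gene on chromosome 5 from 76403285 to 76708132, held 27.7, 28.8 and 26.4 CPM at 72 h and 9.96, 6.05 and 8.799 CPM untreated, a ratio of 1.68. CCND1, which encodes cyclin D1 and lies on chromosome 11 from 69641156 to 69654474, held 159, 185 and 164 CPM at 72 h and 68.4, 76.2 and 73.8 CPM untreated, a ratio of 1.21. The libraries of the times did not overlap for these 3 genes, which the rule favours. The ratio was 1.39 for BTG2, 1.33 for MALT1, 1.16 for C11orf21, 1.15 for COL6A5, 1.08 for NEAT1, 1.06 for FN1 and 0.98 for HSPA6, and lay between 0.82 and 0.96 for the other 13 members. Just inside the minimum of 0.8 were ABLIM1 (0.82), CEMIP2 (0.83) and CYBB (0.84), and just outside MTND4P12 (0.79), GXYLT1 (0.77) and POFUT2 (0.76). At the KDM2B bound of 0.2, BTG2 (0.20), ANGPT1 (0.19) and SSH1 (0.18) were inside and ASIC4 (0.21), MT-ND6 (0.23) and ADCY6 (0.24) outside. At the bound of -0.2, C11orf21 (-0.18), NEO1 (-0.17) and DPF3 (-0.13) were inside and ID2 (-0.22), SCN9A (-0.23) and CETN4P (-0.32) outside. At the minimum of 2 CPM, ENSG00000261578 (2.34 CPM), ABLIM1 (2.598 CPM) and DPF3 (2.83 CPM) were inside and TMEM269 (1.62 CPM), CRIM1 (1.58 CPM) and KLHL4 (1.57 CPM) outside. Membership leaned on single libraries: without KDM2B 72 h library 3 the rule kept 14 of the 23, and without untreated KDM2B library 2 it kept 15. Among all genes at 72 h over untreated, 4.74% were called higher and 2.37% lower in the BCOR table, and 6.55% higher and 3.96% lower in the KDM2B table, and nothing about the members is read from this.

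The levels of these genes in the lines without ligand are a description too, since the untreated libraries entered the rule and a low untreated BCOR level favours membership. IQGAP2 stood at 8.27 ± 2.01 CPM in untreated BCOR-degron cells and 75.1 ± 10.4 CPM in untreated KDM2B-degron cells (SD, n = 3 each). MALT1, the paracaspase of NF-kappaB signalling on chromosome 18 from 58671465 to 58754477, stood at 1.67 ± 0.251 and 25.03 ± 8.07 CPM in those cells. NEO1, a receptor for netrins and repulsive guidance molecules on chromosome 15 from 73051710 to 73305205, stood at 8.14 ± 1.05 and 34.98 ± 5.41 CPM. On the scale of the ratio, 16 of 23 members were lower by at least 0.4 in untreated BCOR-degron than in untreated KDM2B-degron cells, and 0 were higher by as much. Of the 11461 genes with at least 2 CPM at 72 h of BCOR loss, 15.54% were lower and 9.47% higher. In the 2 h libraries 14 of 23 were lower and 2 higher by as much, beside 14.93% and 10.51% of those genes. The rule did not use the 2 h libraries, but they come from the same 2 lines. A level difference between the lines that the rule favoured also enters them, so this count is no separate check. MALT1 at 72 h of BCOR loss, 4.97 ± 0.79 CPM, remained below its untreated level in KDM2B-degron cells. Of 6 monocyte and granulocyte markers, LYZ alone reached a mean of 1 CPM, and their summed level spanned 103 to 201 CPM over the BCOR libraries and 36.3 to 60.7 CPM over the KDM2B libraries. Of 7 lymphoid markers, CD3D alone did, with sums of 2.18 to 5.95 and 5.77 to 8.49 CPM, and MS4A1 was at 0 in both tables. The part of these markers in the difference between lines was not tested. Line, table and batch cannot be told apart here, and in bulk RNA neither can fewer cells that express a gene and less RNA per cell.

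**Figure D1:**
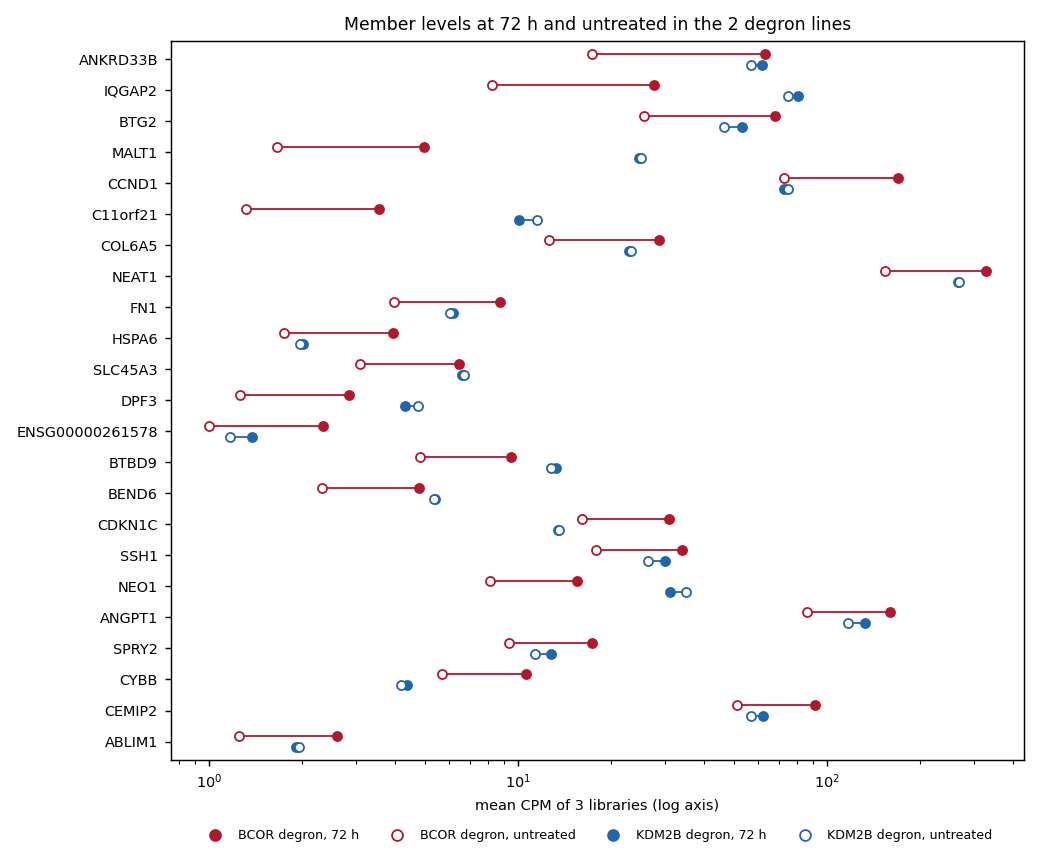
Mean CPM of 3 libraries (log axis) of the 23 members at 72 h and untreated, in BCOR-degron and KDM2B-degron cells. Untreated BCOR-degron cells lie below untreated KDM2B-degron cells by at least 0.4 on the log2 scale for 16 members, beside 15.54% of genes. The rule favours a low untreated BCOR level and itself keeps the KDM2B pairs close.

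The courses of the members are described here without a test, because the untreated and 72 h libraries are those of the rule. The rule favours a highest mean at 72 h in BCOR-degron cells and keeps the 72 h mean near untreated in KDM2B-degron cells. In BCOR-degron cells the highest group mean was that of 72 h for 20 members and that of 24 h for 3, and the median log2 ratio to untreated was 0.21, 0.53, 0.65 and 0.92 over the 4 times. In KDM2B-degron cells the highest group was 8 h for 13 members, 24 h for 6 and 72 h for 4, with medians of -0.08, 0.18, 0.23 and 0.03. Peaks were not counted over all genes, so these counts have no share beside them. The near-zero KDM2B ratio describes 72 h and not every time. At 8 h, 7 of 23 members stood at least 0.4 above untreated, beside 8.96% of genes, and at 24 h 6 of 23, beside 14.75%. CDKN1C, which encodes the cyclin-dependent kinase inhibitor p57 and lies on chromosome 11 from 2883213 to 2885775, averaged 16.2, 20.6, 30.7, 30.7 and 30.8 CPM from untreated to 72 h in BCOR-degron cells and 13.6, 27.02, 28.4, 17.2 and 13.5 CPM in KDM2B-degron cells. BTG2, an antiproliferative gene, averaged 25.6, 37.6, 33.4, 38.9 and 67.9 CPM in BCOR-degron cells and 46.3, 81.9, 84.2, 57.9 and 53.2 CPM in KDM2B-degron cells. ANKRD33B averaged 17.4, 29.2, 42.8, 51.1 and 62.9 CPM in BCOR-degron cells and 56.96, 79.97, 100.4, 79.9 and 61.7 CPM in KDM2B-degron cells. All 3 genes were highest at 8 h in KDM2B-degron cells and at 72 h in BCOR-degron cells, where the 8, 24 and 72 h means of CDKN1C were close.

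**Figure D2:**
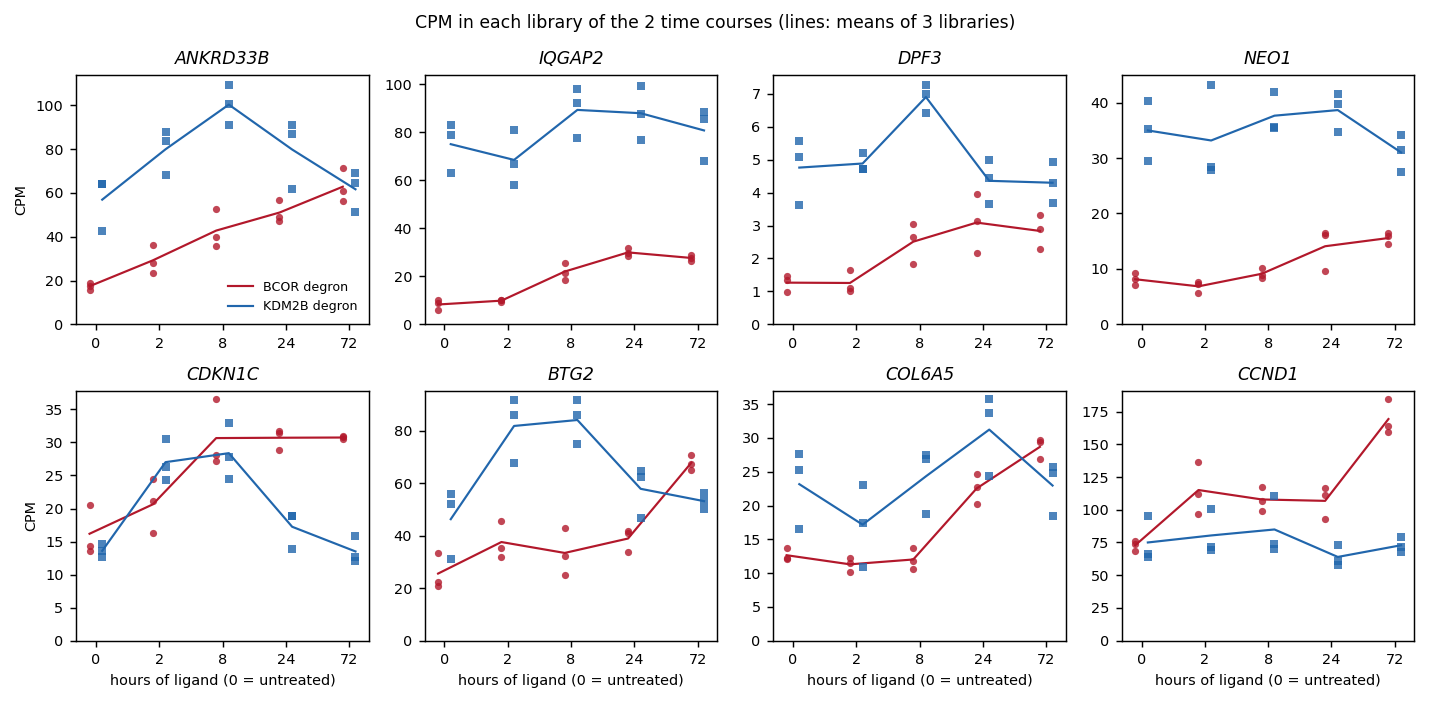
CPM in each library (points) and group means (lines) of selected members from untreated to 72 h of ligand, in BCOR-degron and KDM2B-degron cells. Means of CDKN1C, BTG2 and ANKRD33B are highest at 8 h in KDM2B-degron cells and at 72 h in BCOR-degron cells. The rule favours a 72 h peak in BCOR-degron cells and keeps 72 h near untreated in KDM2B-degron cells.

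The 24 h and 2 h libraries took no part in the rule and were tested against each other. A call needs an adjusted p below 0.05 together with a log2 fold change beyond 0.585 in size. In BCOR-degron cells 7 of 23 members rose at 24 h over 2 h and 0 fell, beside 2.48% and 0.758% of 14110 genes, and DESeq2 called 8. The member median was 0.53, against 0.00 for all genes. IQGAP2 held 31.9, 28.4 and 29.6 CPM at 24 h and 10.05, 9.24 and 10.3 CPM at 2 h (log2 change 1.56, SE 0.15, adjusted p = 6.57e-07 by edgeR). DPF3, a histone-reading subunit of the BAF remodelling complex, held 3.13, 2.18 and 3.96 CPM at 24 h and 1.65, 1.01 and 1.11 CPM at 2 h (1.22, SE 0.30, adjusted p = 0.00961 by edgeR). BTBD9, a BTB-domain gene, held 7.38, 10.5 and 7.92 CPM at 24 h and 3.73, 3.17 and 4.83 CPM at 2 h (1.03, SE 0.18, adjusted p = 0.000719 by edgeR). For these 3 genes every 24 h library lay above every 2 h library. NEO1 (0.98), COL6A5 (0.94), a collagen VI chain, BEND6 (0.86), a BEN-domain gene, and ANKRD33B (0.77) rose too. CCND1 and BTG2 stood at -0.16 and 0.00 and were not called. The 2 h libraries already had ligand, so this contrast leaves out changes made by 2 h. As a description, the log2 ratio to untreated at 2 and 24 h was 0.66 and 0.55 for CCND1 and 0.55 and 0.60 for BTG2. At 2 h, 8 of 23 members stood at least 0.4 above untreated and 1 at least 0.4 below, beside 3.15% and 1.94% of genes. The untreated libraries entered the rule, which favours such a rise. CDKN1C stood at 0.55 (SE 0.16, adjusted p = 0.0271 by edgeR), with every 24 h library above every 2 h library but inside the fold threshold. At 8 h over 2 h, 2 members, IQGAP2 (1.12) and BTBD9 (0.94), were already higher, beside 1.18% of genes. At 24 h over 8 h, 2 rose, COL6A5 (0.88) and NEO1 (0.62), beside 0.617%, and NEO1 was not called without 8 h library 2 or 3 or 24 h library 1 or 3 (0.59, 0.58, 0.47 and 0.53). Of the other BCOR risers, 38.61% rose at 24 h over 2 h.

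In KDM2B-degron cells COL6A5 and HSPA6 rose at 24 h over 2 h and CDKN1C fell, 2 members higher and 1 lower of 23, beside 9.64% and 3.08% of 14524 genes. HSPA6, an inducible HSP70 chaperone gene, held 4.02, 3.58 and 4.18 CPM at 24 h and 1.52, 0.953 and 0.707 CPM at 2 h (log2 change 1.88, SE 0.31, adjusted p = 0.000101 by edgeR). Its libraries did not overlap, and reads of near-identical HSP70 genes may be split between them. COL6A5 held 35.7, 33.7 and 24.3 CPM at 24 h and 23.1, 17.4 and 10.96 CPM at 2 h (0.84, SE 0.26, adjusted p = 0.0235 by edgeR). Its groups were barely apart, and the call ended without 2 h library 2 or 3 or 24 h library 1 or 2 (0.86, 0.61, 0.74 and 0.79, adjusted p = 0.0595 to 0.091 by edgeR). The call also ended with no filter on low counts (0.85, adjusted p = 0.0716 by edgeR). CDKN1C held 13.9, 18.9 and 18.9 CPM at 24 h, all below its 24.3, 26.3 and 30.5 CPM at 2 h (-0.71, SE 0.14, adjusted p = 0.000612 by edgeR). Without 2 h library 3 or 24 h library 1 it stood at -0.58 and -0.56, inside the fold threshold, and the count of calls was 2 without 2 h library 2 or 3 and 1 without 24 h library 1. Of the other BCOR risers 59.6% rose, a gap that the KDM2B condition of the rule favours. At 8 h over 2 h, 2 members rose beside 2.86%: C11orf21 (0.61) and SLC45A3 (0.62). C11orf21 was not called without library 1 of either time (0.58 and 0.56), nor SLC45A3 without 2 h library 2 or 3 or 8 h library 1 or 2 (0.66, 0.56, 0.60 and 0.58). At 24 h over 8 h, HSPA6 (0.92) rose and DPF3 (-0.65) and CDKN1C (-0.72) fell, 1 and 2 members beside 4.79% and 1.89%. These calls ended without 8 h library 2 or 24 h library 1 or 3 for HSPA6 (0.75, 0.91 and 0.88), 24 h library 2 for DPF3 (-0.55) and 24 h library 1 for CDKN1C (-0.57).

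One fit of both tables tested the difference, the 24 h over 2 h change in BCOR-degron cells minus that in KDM2B-degron cells. It was called higher for 5 of 23 members and lower for 0, beside 2.17% and 4.38% of 15052 genes. The difference was 1.404 for DPF3 (SE 0.33, adjusted p = 0.00473 by edgeR), 1.24 for CDKN1C (SE 0.23, adjusted p = 0.000613 by edgeR) and 1.21 for IQGAP2 (SE 0.22, adjusted p = 0.000604 by edgeR), and these calls held without any 1 library. ANKRD33B differed by 0.79 (SE 0.25, adjusted p = 0.0403 by edgeR) and NEO1 by 0.80 (SE 0.27, adjusted p = 0.0446 by edgeR), both less firmly. The ANKRD33B call ended without 2 h library 2 or 3 or 24 h library 1 or 3 of the BCOR table, or 2 h library 1 or 2 or 24 h library 3 of the KDM2B table (0.66, 0.78, 0.70, 0.81, 0.73, 0.77 and 0.63, adjusted p = 0.0529 to 0.103 by edgeR), and with no filter on low counts. The NEO1 call ended without any 2 h library or 24 h library 1 or 3 of the BCOR table, or 2 h library 3 or 24 h library 1 or 2 of the KDM2B table (0.85, 0.69, 0.93, 0.66, 0.71, 0.55, 0.74 and 0.84, adjusted p = 0.0539 to 0.162 by edgeR). With 2 h library 2 or 24 h library 1 or 3 of the BCOR table left out, 3 members were called. For CDKN1C the difference joins a BCOR change of 0.55, inside the fold threshold, with a KDM2B change of -0.71. Its log2 ratio to untreated, not tested, was already 0.97 at 2 h in KDM2B-degron cells, against 0.34 in BCOR-degron cells. Of 303 other BCOR risers, 10 were called higher (3.3%) and 42 lower, a gap to the members that the KDM2B condition of the rule favours. The difference of the 24 h over 8 h changes, added after the course of CDKN1C was seen, was called higher for CDKN1C alone (0.69, SE 0.22, adjusted p = 0.0416 by edgeR), 1 of 23 members, and lower for 0, beside 1.58% and 3.07% of genes.

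The EV cells hold a further ligand comparison that the rule did not use. Of 23 members 0 were called with ligand over DMSO by edgeR and 0 by DESeq2, beside 2.95% of 15910 genes higher and 0.321% lower. All 23 fitted log2 fold changes were above 0, beside 52.4% of genes, with a median of 0.26, against 0.01 for all genes. The smallest was 0.008. Mean CPM was lower with ligand than with DMSO for NEO1 (15.1 and 15.5) and ENSG00000261578 (1.13 and 1.37), so the signs of the smallest changes are not firm. Of 23 members 12 had an unadjusted p under 0.05, beside 24.6% of genes. The members share the same libraries and do not repeat the comparison. CCND1 held 33.7, 34.3 and 32.3 CPM with ligand and 23.2, 23.97 and 22.1 CPM with DMSO (log2 change 0.54, SE 0.10, adjusted p = 0.000175 by edgeR), apart in every library but inside the fold threshold. COL6A5 stood at 0.50 (adjusted p = 1.78e-05 by edgeR) and ANKRD33B at 0.38 (adjusted p = 0.000249 by edgeR). With no fold threshold 9 members passed. Without ligand library 1, which stands apart, SPRY2 alone was called, and without DMSO library 2 NEAT1 alone, 1 member each time. Of the other BCOR risers 54.82% rose.

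Ligand was also set against DMSO in the construct cells. CCND1 and CDKN1C rose in dLRRS cells, 2 of 23, beside 3.19% of genes higher and 0.214% lower. Of the other BCOR risers 48.5% rose there. CCND1 held 5.91, 7.75 and 7.29 CPM with ligand and 4.04, 3.18 and 3.27 CPM with DMSO (log2 change 0.99, SE 0.16, adjusted p = 1.23e-05 by edgeR). CDKN1C held 5.33, 5.28 and 7.35 CPM with ligand and 3.42, 3.38 and 3.86 CPM with DMSO (0.76, SE 0.14, adjusted p = 0.000283 by edgeR). Neither gene's libraries overlapped, and without ligand library 3 CDKN1C stood at 0.57, inside the threshold, leaving 1 call. In LF, SF and dCxxC cells 0 members were called by edgeR and 0 by DESeq2, beside 0.00629%, 0.0189% and 0.0189% of genes called higher and 0% lower in each, so that hardly any gene was called in these lines. At an unadjusted p under 0.05 there were 4, 9 and 6 of 23 members, beside 10.4%, 7.55% and 10.5% of genes.

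Between lines under DMSO many members differed. Of 23 members 11 were lower and 0 higher in LF than in EV cells, 11 lower and 1 higher in SF, 9 lower and 1 higher in dLRRS, and 0 lower and 10 higher in dCxxC cells. Of all genes 8.36%, 9.47%, 7.13% and 8.93% were lower and 6.9%, 4.17%, 4.82% and 10.3% higher. Of 301 other BCOR risers tested, 92, 165, 120 and 8 were lower and 39, 14, 16 and 220 higher, so these shifts are not particular to the members. NEO1 held 1.06, 1.23 and 0.862 CPM in SF cells and 15.3, 14.9 and 16.4 CPM in EV cells (log2 change -3.84, SE 0.15, adjusted p = 1.11e-23 by edgeR), with no overlap, and was lower in LF (-1.87) and dLRRS cells (-1.51). CCND1 averaged 11.2 ± 1.92 CPM in LF, 3.497 ± 0.469 in dLRRS and 49.6 ± 1.32 in dCxxC cells, against 23.1 ± 0.961 in EV cells (SD, n = 3 each), changes of -0.996, -2.71 and 1.13. Cyclin D1 RNA was thus lower in 2 of these lines and higher in dCxxC cells. FN1, the fibronectin gene, averaged 64.8 ± 2.49 CPM in dLRRS and 10.6 ± 0.897 CPM in EV cells (2.63, SE 0.09, adjusted p = 2.12e-26 by edgeR), the only member higher in dLRRS cells. ANGPT1, a ligand of the TIE2 receptor, averaged 169 ± 8.05 CPM in dCxxC and 53.9 ± 2.09 CPM in EV cells (1.67, SE 0.07, adjusted p = 2.72e-24 by edgeR). CDKN1C was the member higher in SF cells (0.88). MALT1 was lower in LF (-1.42), SF (-1.895) and dLRRS cells (-0.97) and higher in dCxxC cells (0.78). SPRY2, an inhibitor of receptor tyrosine kinase signalling, was lower in LF (-0.93) and SF cells (-1.495) and higher in dCxxC cells (1.13). ABLIM1, an actin-binding gene, was lower in LF, SF and dLRRS cells on 6, 24 and 2 counts over 3 libraries, against 112 in EV cells. The comparisons share the EV libraries, and construct and clone cannot be told apart.

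**Figure D3:**
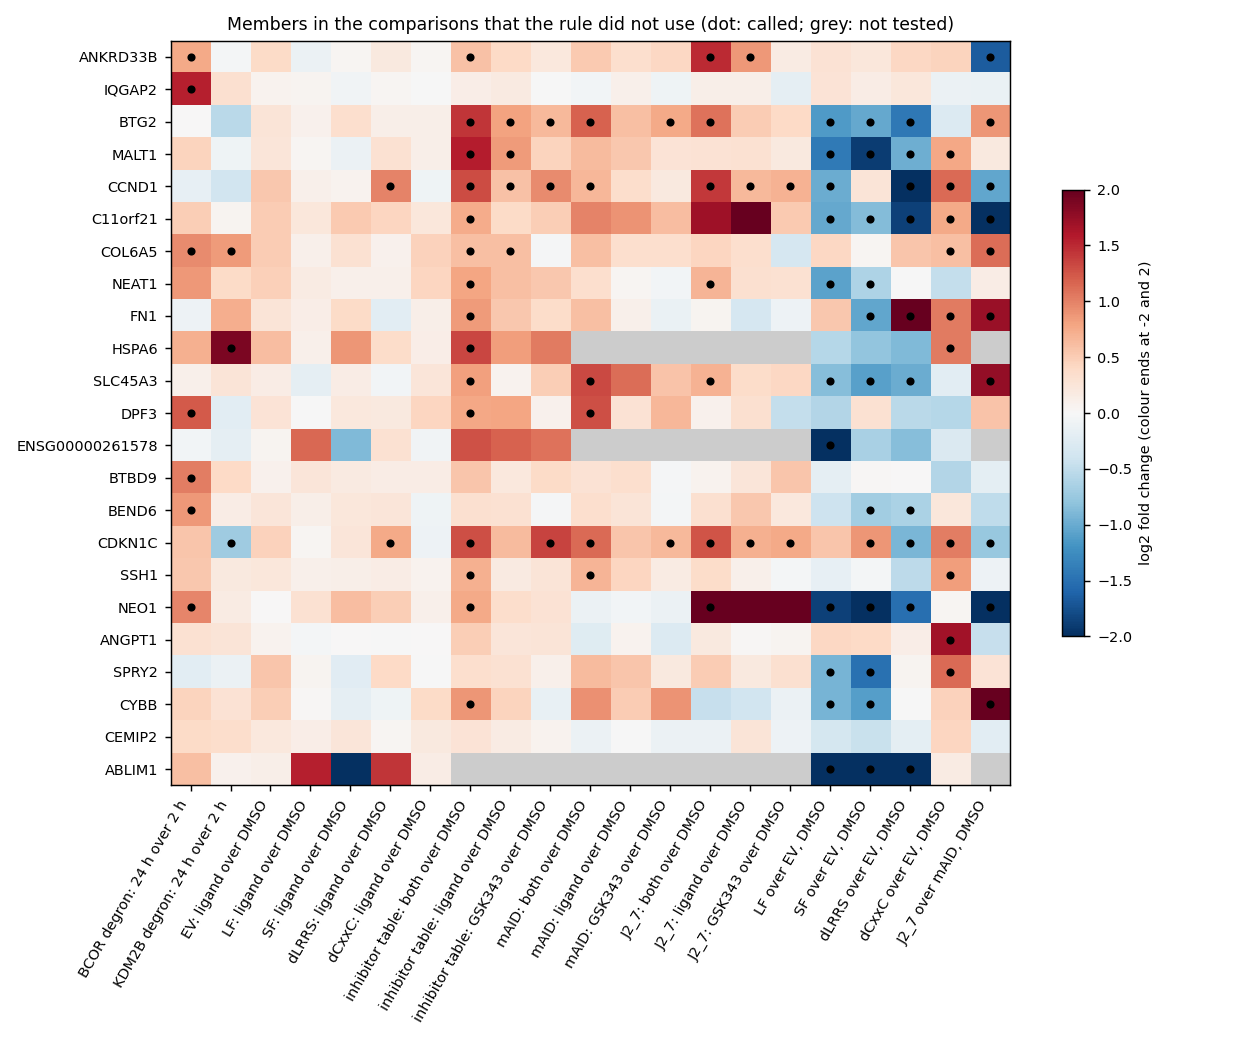
Log2 fold changes of the members in comparisons of libraries that the rule did not use, with called members marked. No member is marked for ligand in EV, LF, SF or dCxxC cells, while 15 are for ligand plus GSK343 in the inhibitor table, and values of NEO1, C11orf21, CYBB and ABLIM1 rest in part on few counts.

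GSK343 was set beside the ligand in 3 sets of libraries. Of 22 members tested in the inhibitor table (not ABLIM1, which had low counts), 15 rose with ligand plus GSK343 over DMSO, 4 with ligand and 3 with GSK343, and 0 fell in each, beside 9.53%, 2.31% and 4.29% of 13374 genes higher and 1.14%, 0.239% and 0.292% lower. MALT1 held 9.04, 8.95 and 7.62 CPM with both agents, 6.28, 5.06 and 3.75 with ligand, 3.98, 3.64 and 3.99 with GSK343 and 2.65, 2.997 and 2.59 with DMSO. Every library with both agents lay above all others, and the log2 fold change over DMSO was 1.56 (SE 0.19, adjusted p = 1.84e-05 by edgeR). BTG2 held 26.1, 24.4 and 26.6 CPM with both and 9.43, 10.6 and 7.45 with DMSO (1.43, SE 0.14, adjusted p = 1.52e-06 by edgeR). CCND1 held 80.4, 83.7 and 79.4 CPM with both and 30.7, 32.5 and 31.2 with DMSO (1.31, SE 0.10, adjusted p = 1.01e-07 by edgeR). Neither gene's libraries overlapped. HSPA6 (1.33), CDKN1C (1.29), CYBB (0.89), the NADPH oxidase subunit gene, FN1 (0.84), SLC45A3 (0.82), a solute carrier gene, NEAT1 (0.79), the RNA scaffold of paraspeckles, DPF3 (0.77), NEO1 (0.76), C11orf21 (0.75), SSH1 (0.71), a cofilin phosphatase gene, COL6A5 (0.60) and ANKRD33B (0.59) rose too. Of these, DESeq2 did not call ANKRD33B (0.58), DPF3 (0.77) or CYBB (0.895). With no filter on low counts ANKRD33B and CYBB were not called, nor ANKRD33B with DESeq2 size factors. Without DMSO library 3 the count was 8: HSPA6, CDKN1C, CYBB, DPF3, C11orf21, COL6A5 and ANKRD33B were lost. Other single libraries ended the calls of CDKN1C (any of the 6, 1.24 to 1.39), DPF3 (DMSO library 1 or library 2 or 3 of both, 0.66 to 0.77), CYBB (DMSO library 2 or library 2 or 3 of both, 0.78 to 0.96), HSPA6 (library 3 of both, 1.09 to 1.11), COL6A5 (DMSO library 2 or library 1 of both, 0.48 to 0.58) and ANKRD33B (library 1 or 3 of both, 0.54 to 0.58), and C11orf21 stood at 0.57 without DMSO library 3. IQGAP2, second by ratio after BCOR loss, stood at 0.13 and was not called. Of the other BCOR risers 80.97% rose with both agents, 42.56% with ligand and 31.49% with GSK343.

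The single agents gave fewer firm calls. With ligand BTG2 held 14.6, 16.99 and 16.8 CPM, all above its DMSO libraries (log2 change 0.81, SE 0.14, adjusted p = 0.00377 by edgeR), and kept its call without any 1 library. MALT1 (0.85), COL6A5 (0.61) and CCND1 (0.59) rose too. The MALT1 call ended without any DMSO library or ligand library 1 or 2 (0.67 to 0.92), that of COL6A5 without DMSO library 2 or 3 or ligand library 1 or 3 (0.49 to 0.64) and that of CCND1 without DMSO library 1 or 3 or ligand library 2 (0.57, 0.58 and 0.49). With no filter on low counts CCND1 stood at 0.579, inside the fold threshold. The count was 2 without DMSO library 1 or ligand library 2 and 1 without DMSO library 3. With GSK343 CCND1 held 52.2, 63.8 and 66.6 CPM, all above its DMSO libraries (0.94, SE 0.10, adjusted p = 1.09e-05 by edgeR). CDKN1C held 31.2, 10.05 and 11.7 CPM with GSK343 and 5.798, 7.03 and 5.83 with DMSO (1.34, SE 0.38, adjusted p = 0.0486 by edgeR). Its first GSK343 library, the shallowest of the table, lay far above the other GSK343 libraries, and the call ended without any DMSO library (1.298, 1.45 and 1.31) and with no filter on low counts. BTG2 (0.65) was not called without DMSO library 3 or GSK343 library 2 (0.53 and 0.51), and the count was 2 without DMSO library 1 or 2 and 1 without DMSO library 3.

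Against ligand alone, ligand plus GSK343 raised 4 of 22 members in the inhibitor table, beside 4.01% of genes higher and 0.179% lower. These were CCND1 (0.72), kept without any 1 library, SLC45A3 (0.75), MALT1 (0.71) and BTG2 (0.62). BTG2 stood at 0.55 without ligand library 1, MALT1 was not called without ligand library 2 or 3 or library 1 or 2 of both agents (0.72, 0.54, 0.67 and 0.67), nor SLC45A3 without ligand library 2 or library 3 of both (0.73 and 0.67).

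In mAID cells 6 of 20 members tested rose with both agents, 2 with GSK343 and 0 with ligand, and 0 fell in each, beside 5.5%, 0.601% and 2.13% of 14649 genes higher and 0.806%, 0.0614% and 0.177% lower. ABLIM1, HSPA6 and ENSG00000261578 were not tested in this table. Of the other BCOR risers 65.75% rose with both agents, 5.91% with GSK343 and 42.13% with ligand. For ligand, edgeR and DESeq2 called 0, 9 of 20 had an unadjusted p under 0.05 beside 13.3% of genes, and 1 was called without ligand library 1 (CDKN1C) or 3 (SLC45A3) or DMSO library 3 (CDKN1C). CDKN1C held 49.2, 47.3 and 48.9 CPM with both, 31.3, 33.4 and 34.3 with ligand, 37.6, 35.5 and 31.4 with GSK343 and 24.2, 19.1 and 24.1 with DMSO. All treated libraries lay above DMSO, with log2 fold changes of 1.13, 0.55 and 0.65, of which that of ligand was inside the fold threshold. SLC45A3 (1.32), DPF3 (1.296), BTG2 (1.17), SSH1 (0.68) and CCND1 (0.66) also rose with both. DPF3 was not called without DMSO library 1 or library 2 of both (1.22 and 1.197), nor SSH1 without library 2 of both (0.45). DESeq2 did not call DPF3 with both agents. BTG2 was called with GSK343 (0.76, adjusted p = 0.0498 by edgeR), and that call ended without any DMSO library or GSK343 library 1 or 2 (0.56 to 0.92), leaving 1. DESeq2 also called 1 member with GSK343. Both agents over ligand called 0 members by edgeR and 0 by DESeq2, with 6 of 20 at an unadjusted p under 0.05 beside 16.8% of genes, and 0.935% of genes were called higher and 0.198% lower.

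In J2_7 cells 7 of 20 members rose with both agents, 3 with ligand and 2 with GSK343, and 0 fell in each, beside 6.38%, 2.16% and 2.12% of genes higher and 0.218%, 0.225% and 0.191% lower. Of the other BCOR risers 69.29%, 37.01% and 14.17% rose. CDKN1C held 30.1, 28.9 and 31.1 CPM with both, 21.6, 22.98 and 19.2 with ligand, 15.3, 21.1 and 21.3 with GSK343 and 13.7, 12.3 and 13.02 with DMSO, log2 fold changes of 1.25, 0.70 and 0.76. CCND1 held 27.6, 27.9 and 32.9 CPM with both, 17.2, 16.6 and 18.4 with ligand, 17.9, 19.1 and 15.6 with GSK343 and 12.3, 12.003 and 9.86 with DMSO, changes of 1.42, 0.65 and 0.69. For both genes all treated libraries lay above all DMSO libraries. The CCND1 ligand call ended without library 3 of ligand or DMSO (0.58 and 0.57), and its GSK343 call without GSK343 library 2 (0.55), leaving 1. ANKRD33B rose with both (1.498, adjusted p = 5.03e-08 by edgeR) and with ligand (0.87), where it stood at 0.54 without ligand library 1. BTG2 (1.08), SLC45A3 (0.69) and NEAT1 (0.67) rose with both, SLC45A3 not without library 1 of both or DMSO library 2 (0.61 and 0.63). SLC45A3 was not called by DESeq2 either (0.72). NEO1 was called on 7 counts over 3 libraries with both and 0 with DMSO, and not without library 1 or 2 of either group (adjusted p = 0.0508 to 0.0578 by edgeR). Both agents over ligand raised 2 of 20 members, CCND1 (0.77) and ANKRD33B (0.62), beside 1.46% of genes higher and 0.0137% lower. The ANKRD33B call ended without library 1 or 3 of both or ligand library 2 or 3 (0.63, 0.52, 0.61 and 0.41).

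**Figure D4:**
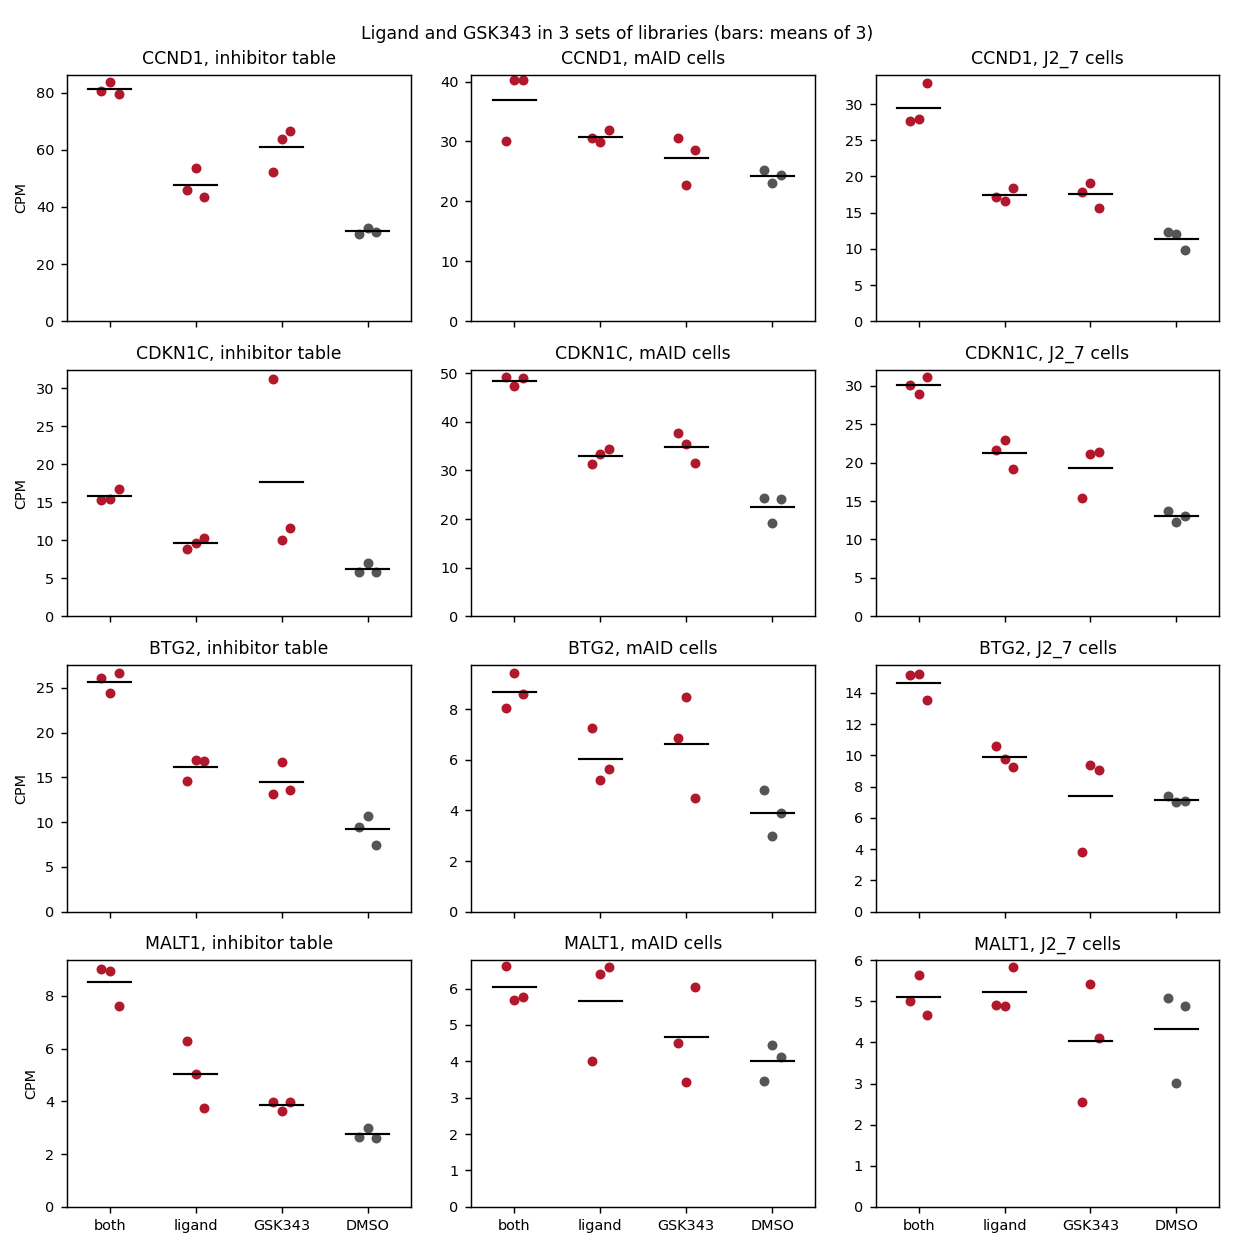
CPM of CCND1, CDKN1C, BTG2 and MALT1 in each library with both agents, ligand, GSK343 or DMSO, in the inhibitor table, mAID cells and J2_7 cells, with the mean of 3. With both agents CCND1, CDKN1C and BTG2 lie above DMSO in every library of the 3 sets, and 1 GSK343 library of the inhibitor table is far above the others for CDKN1C.

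Under DMSO, 5 of 20 members were lower and 5 higher in J2_7 than in mAID cells, beside 10.7% and 3.5% of genes. Of 254 other BCOR risers tested, 86 were lower and 22 higher. ANKRD33B held 5.66, 4.54 and 3.92 CPM in J2_7 cells and 17.9, 13.4 and 15.1 CPM in mAID cells (log2 change -1.67, SE 0.17, adjusted p = 1.66e-09 by edgeR), with no overlap. CCND1 (-1.04) and CDKN1C (-0.75) were lower too. NEO1 had 0 counts over 3 J2_7 libraries and 68 over 3 mAID libraries, and C11orf21 had 1 and 43. SLC45A3 (1.75), FN1 (1.72), COL6A5 (1.12) and BTG2 (0.89) were higher. CYBB was called on 27 counts in J2_7 and 5 in mAID cells, and not without J2_7 library 3 or mAID library 2 or 3 (1.67, 1.65 and 2.03). DESeq2 did not call it.

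Calls were spread unevenly over the members. In the 22 comparisons made of those in the heat map and the difference, CDKN1C was called higher in 11 and lower in 3, CCND1 higher in 9 and lower in 3, BTG2 higher in 7 and lower in 3 and NEO1 higher in 4 and lower in 4. IQGAP2 was called higher in 2 and lower in 0, in BCOR-degron cells at 24 h over 2 h and in the difference, and BTBD9 higher in 1 and lower in 0. ANGPT1, SPRY2, ABLIM1 and ENSG00000261578 were called only between lines under DMSO, and CEMIP2 in 0 of the 22. Many of these comparisons share control libraries, and ABLIM1, HSPA6 and ENSG00000261578 could be tested in only 12, 15 and 15 of them.

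Genes of related function were counted beside the members, first at 24 h over 2 h. In this contrast 2.48% of all genes were called higher and 0.758% lower in BCOR-degron cells, and 9.64% and 3.08% in KDM2B-degron cells, so counts are not set between the lines. Of 24 other cell-cycle genes, 0 were called in BCOR-degron cells, and RRM2 (-0.86) and CCNE2 (-0.93) fell in KDM2B-degron cells. Of the other integrin, collagen and laminin genes, 2 of 21 rose in BCOR-degron cells, COL18A1 (1.81) and COL6A1 (1.57), and 9 of 27 in KDM2B-degron cells. Of 13 other heat shock chaperone genes, HSPA1A (1.07) and HSPA1B (1.08) rose in BCOR-degron cells, and 5 fell in KDM2B-degron cells, where HSPA6 rose. Of the other AP-1 and immediate-early genes, FOSB fell in BCOR-degron cells (-1.499, 1 of 21), and 2 of 20 rose and 2 fell in KDM2B-degron cells. At 72 h over untreated, 5 of these 21 rose and 0 fell in BCOR-degron cells, beside 4.74% and 2.37% of all genes. In KDM2B-degron cells 3 of 20 then rose and 1 fell, beside 6.55% and 3.96%. Of the cell-cycle genes 1 of 24 rose in each line at 72 h. Integrin, collagen and laminin genes had 5 of 21 higher and 1 lower in BCOR-degron cells, 9 of 27 and 3 in KDM2B-degron cells. Of 13 heat shock genes 0 rose in either line and 1 fell in KDM2B-degron cells. Of 10 PRC1.1 subunit genes, BCOR alone was called at 24 h over 2 h in BCOR-degron cells (0.78) and 0 in KDM2B-degron cells. At 72 h over untreated BCOR alone was called in each line, higher by 1.81 in BCOR-degron and 0.82 in KDM2B-degron cells. Its mean in KDM2B-degron cells was already 360 CPM at 2 h, against 253 CPM untreated, a rise that 24 h over 2 h leaves out.

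Some counts may hold reads of neighbouring genes, since the strand setting of the counting was not stated. Exons of ANKRD33B, IQGAP2, MALT1, CCND1, C11orf21 and SSH1 overlap exons on the opposite strand, and NEAT1 and SSH1 overlap genes on their own strand.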

How the data were processed

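RNA of K562 cells was measured in 96 libraries of 5 tables. Per the labels' protocols, RNA was extracted with RNeasy kits, and libraries were made with a KAPA RNA HyperPrep kit with removal of ribosomal RNA and sequenced on a NextSeq500. For the J2_7 table the labels also name Smart-3SEQ as an alternative protocol. Per the submitters' processing notes, STAR, Trim Galore 0.6.7, Strand Avadis NGS 3.0 and DESeq2 were used on hg38. The counting program, strand setting and annotation release are not stated in the sources used here. The authors deposited raw counts per gene ID in 4 tables and estimated counts per symbol in the J2_7 table, where 57.9% of nonzero values were whole, and these were rounded. From it, 92 spike-in entries were left out. Depth limits precision in the shallow libraries, and counting error is covered only for independent molecules.

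CPM used column totals. Tests used edgeR 4.0.16 in R 4.3.3: filterByExpr, TMM factors and a robust quasi-likelihood fit over all groups of a table, with Benjamini-Hochberg adjustment over all genes tested, and calls needed an adjusted p below 0.05 together with a log2 fold change beyond 0.585 in size. The 24 h over 2 h changes of the BCOR and KDM2B tables were compared in a joint fit. SE was obtained from the log2 fold change and its F value. The scripts were tested on simulated data. Alternatives were DESeq2 1.42.0, its size factors, no filter, no fold threshold, each library left out, a replicate block, and other member rules. Library numbers of the KDM2B and inhibitor tables and of EV, LF and SF cells are column order. The members and lists were chosen with earlier results of these data known. Genes were named by a rule: every member with a symbol, the 3 genes on each side of each threshold, members on a list, up to 4 called members per direction and comparison, and PRC1.1 subunits, and the other called members and list genes were named after their values were seen. Ligand plus GSK343 over ligand was added after the joint calls were seen. Gene positions were taken from GENCODE 44 (hg38) and promoters from RefSeq. Some genes and the lists that hold them are not reported here.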

Additional observations from a re-analysis of the deposited data

Results flagged for a closer look

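The change at 24 h over 2 h differed between BCOR-degron and KDM2B-degron cells in 5 members, by an interaction test in edgeR over both tables. The log2 difference, BCOR minus KDM2B, was 0.785 for ANKRD33B, 1.213 for IQGAP2, 1.404 for DPF3, 1.24 for CDKN1C and 0.8 for NEO1. The members were chosen for a difference between these lines at 72 h, and the 24 h and 2 h values come from other libraries of the same lines. Both times had ligand, so the difference leaves out changes made by 2 h. The log2 ratio of CDKN1C to untreated, not tested, was 0.97 at 2 h and 0.33 at 24 h in KDM2B-degron cells. In BCOR-degron cells it was 0.34 and 0.905. That of ANKRD33B at 2 h was 0.49 in KDM2B-degron and 0.73 in BCOR-degron cells. The call of NEO1 ended without any 1 of 8 of the 12 libraries and that of ANKRD33B without any 1 of 7. Line, table and preparation were not separated, and their part in these differences was not tested.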

How the results depend on the processing

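Of 315 alternatives for 23 counts, 268 stayed within 1.5 times and 47 did not, and no named member reversed. The cause of each move was not tested, except where fewer members were counted. With members limited to a ratio of at least 1 (9 genes), calls numbered 3 for BCOR and 1 for KDM2B at 24 h over 2 h, 2 for their difference, 1 for dLRRS ligand, 5 for each of LF, SF, dLRRS and dCxxC over EV, 8 for ligand plus GSK343 in the inhibitor table, 1 and 2 for GSK343 and both agents in mAID cells, 1 and 4 in J2_7 cells, and 6 for J2_7 over mAID. With members by TMM CPM (21 genes), KDM2B 24 h over 2 h gave 5. With no fold threshold the counts were 5 for KDM2B 24 h over 2 h, 9 for EV ligand, 1 for each of SF, dCxxC and mAID ligand, and 19, 16 and 17 for LF, dLRRS and dCxxC over EV. With no filter on low counts mAID ligand gave 2, and DESeq2 gave 1 for mAID GSK343.

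Leaving out each library gave 7 to 9 calls for BCOR and 1 to 3 for KDM2B at 24 h over 2 h, 3 to 5 for their difference, 0 to 1 for EV ligand, 1 to 2 for dLRRS ligand, and 0 throughout for LF, SF and dCxxC ligand. It gave 12 to 13, 11 to 12, 10 to 12 and 10 to 12 for LF, SF, dLRRS and dCxxC over EV. In the inhibitor table it gave 1 to 3 for ligand, 1 to 3 for GSK343 and 8 to 14 for both, in mAID cells 0 to 1, 1 to 2 and 5 to 8, in J2_7 cells 2 to 3, 1 to 2 and 5 to 7, and 9 to 11 for J2_7 over mAID. The member rule itself gave 17 to 31 genes without each of its 12 libraries, 25 with 0.1 CPM added and 19 with 1 CPM. CCND1, BTBD9 and BEND6 stayed members without any of them, and ABLIM1 left without 8.

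In the J2_7 table same-numbered libraries did not deviate together: their median correlation was -0.009, against 0.002 for other pairs, and 4 of 84 were above 0.1. In the BCOR table the median was 0.09, against -0.044 for other pairs, and 14 of 30 were above 0.1. Whether replicate numbers pair the BCOR samples was not tested. With the replicate block the BCOR 24 h over 2 h count was 7, the difference 5 (block on the BCOR libraries), mAID GSK343 1 and J2_7 over mAID 10. Shallow libraries limit the precision of the EV ligand and J2_7 comparisons.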
